A study of Homo sapiens with 4 samples.

Results

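The genes described here are 32 members of the NRF2 system and its redox enzymes in MDA-MB-231, an established line of triple-negative breast cancer cells. They were chosen by symbol for their known roles, with earlier results of these data known, and each of the 32 had its own row among the 20263 genes of the count table. The groups were cells given Rib_CA, named in the title as a derivative of ribociclib, and cells given the solvent DMSO, each for 24 h and each with 2 messenger RNA libraries. Ribociclib is an inhibitor of the cell cycle kinases CDK4 and CDK6. The labels give no dose, name no genetic change in either group, and do not say whether the libraries of a group came from separate cultures, so each p-value rests on a spread between libraries that may be technical. All the cells are of a single tumour line, which limits the comparison as a model of other tumours. The mesenchymal and basal markers VIM, CD44, AXL, CAV1 and EGFR lay at 276 CPM (counts scaled to a common library size) or more in every library, while the oestrogen receptor gene ESR1 lay at 0.661 CPM or less and the epithelial cadherin gene CDH1 at 0.0772 CPM or less. The epithelial adhesion gene EPCAM was not near 0, at 8.29 to 13.8 CPM. CD3E and DCN, markers of T cells and fibroblasts, had no counts, and the fibroblast and pericyte gene PDGFRB lay at 0.768 to 2.88 CPM. Some genes listed as markers of other cells were well expressed, with the macrophage gene CD68 at 160 to 295 CPM and the luminal keratin genes KRT8 and KRT18 at 205 to 491 CPM.

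NRF2, encoded by NFE2L2, is a transcription factor that cells keep low by handing it to the ubiquitin ligase adaptor KEAP1 and its partner CUL3. When oxidants or electrophiles modify KEAP1, NRF2 escapes destruction, pairs with a small MAF protein and binds antioxidant response elements. Its targets make and recycle glutathione and thioredoxin, supply NADPH, and reduce, conjugate and export reactive compounds. Because the control acts mainly on the protein, the level of NFE2L2 messenger RNA does not give NRF2 activity.

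The antioxidant response element is the sequence that NRF2 binds, so the places where its core letters stand in the members' promoters are shown first. The core was taken as TGACNNNGC and searched on both strands in RefSeq promoter windows (GRCh38.p14) from 250 bases before to 50 bases after each annotated start. The core can contain part of the AP-1 motif, TGANTCA. That motif stood in 4 of the 35 member windows, or 11.4%, against 5.41% of windows of tested genes and 7.71% of all windows. The windows covered 27 members, and PRDX1, GSS, AKR1B10, ABCC3 and GSR had no entry. At least 1 core stood in 10 of the 27 members, or 37.0%, against 19.2% of 10909 tested genes and 16.1% of all 27305 genes in the table of windows. A match is a string of letters and does not show binding. Bases outside the windows were not searched, so a gene without a match may still have an element elsewhere. The matches in 5 members are printed here with 10 bases on each side, 5′ to 3′ on the strand on which the core reads forward, and the capitals mark the core:
GCLM (chr1:93909446-93909474): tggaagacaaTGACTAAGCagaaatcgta
TXNRD1 (chr12:104215670-104215698): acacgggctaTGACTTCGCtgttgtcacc
TXNRD1 (chr12:104215761-104215789): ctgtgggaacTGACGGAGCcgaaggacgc
TXNRD1 (chr12:104286920-104286948): agagtcagaaTGACAAAGCagaaatccac
KEAP1 (chr19:10502784-10502812): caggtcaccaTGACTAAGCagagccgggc
KEAP1 (chr19:10502807-10502835): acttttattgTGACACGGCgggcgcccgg
GSTP1 (chr11:67583736-67583764): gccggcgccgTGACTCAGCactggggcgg
ME1 (chr6:83431022-83431050): gctgctggggTGACGGTGCtgactgcagc
ME1 (chr6:83431170-83431198): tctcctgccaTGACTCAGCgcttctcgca
Of the sites shown, that of GSTP1 and the second of ME1 overlap an AP-1 motif. The 10 members with a core had a median log2 fold change of 0.38 for Rib_CA over DMSO and the 17 without had 0.36. As described next, 3 members passed the test, all of them among the 17 without a core. The difference between these sets was not tested.

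Of the 32 members, 2 rose in Rib_CA and 1 fell. BLVRB, which encodes biliverdin reductase B, rose 4.08-fold, OSGIN1, an oxidative stress-induced growth inhibitor gene, rose 2.80-fold, and NFE2L2 itself was 2.48-fold lower. A gene passed when its p from edgeR's quasi-likelihood test, adjusted by the Benjamini-Hochberg method over all 13667 tested genes, was under 0.05. That held for 7.13% of all tested genes, 2.01% higher and 5.11% lower, and for 9.38% of the members, so the members' share lay near the background. At an unadjusted p under 0.05 there were 10 members, where 28.4% of all genes met that limit, and DESeq2 called 7 members, where it called 18.7% of all genes. Fold changes were positive for 26 members and negative for 6, where 51.9% of all tested genes were positive. The members' median was 0.36 on the log2 scale, against 0.03 over all tested genes. The positive members numbered 19 without Rib_CA 2 and 28 without Rib_CA 1, and 27 and 23 without DMSO 1 and 2. With libraries scaled by total counts alone, the median over all genes shifted by 0.20, and the members' median was 0.57. In bulk libraries, fewer cells that express a gene and less RNA per cell cannot be told apart.

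**Figure D1:**
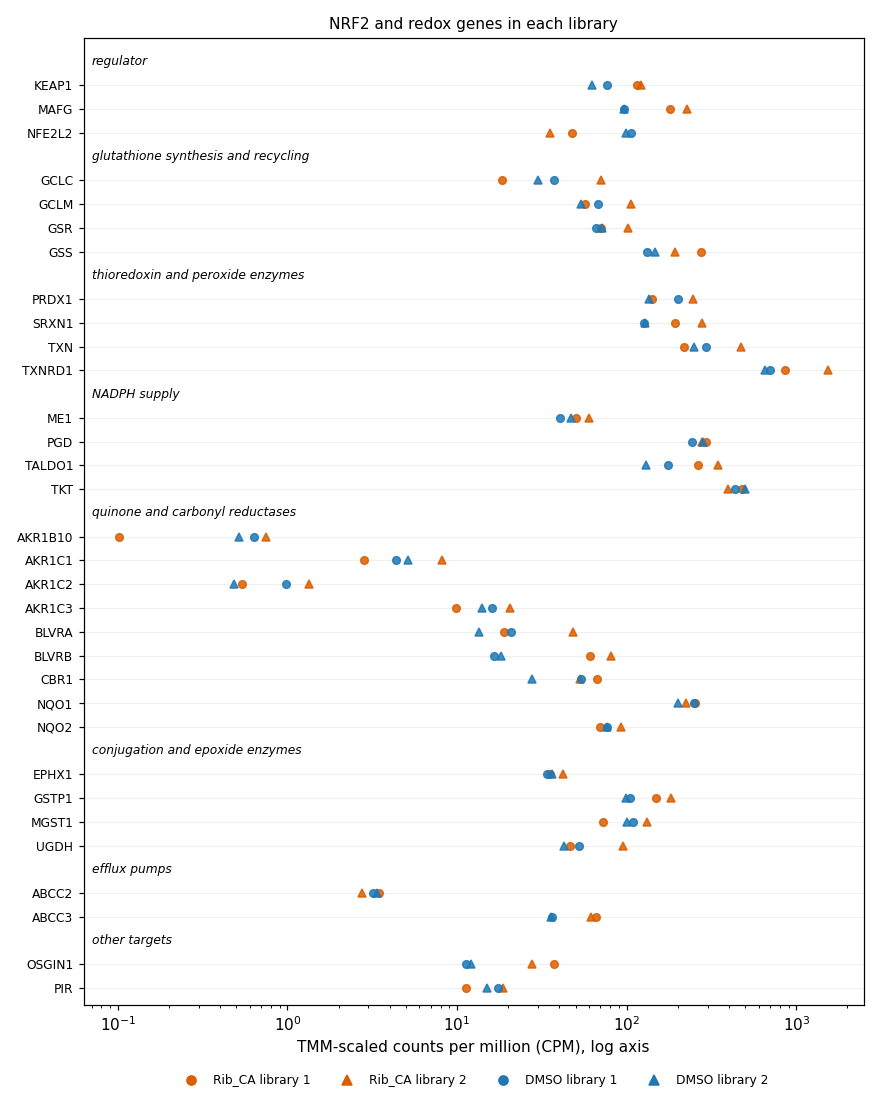
Level of each of the 32 genes in each library, as TMM-scaled CPM on a log axis, with Rib_CA in orange and DMSO in blue. NFE2L2 is lower in both Rib_CA libraries, BLVRB, OSGIN1 and MAFG are higher in both, and for GCLC, TXN, UGDH and the AKR1C genes the Rib_CA libraries lie on opposite sides of at least 1 DMSO library.

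Both Rib_CA libraries lay above both DMSO libraries for 11 members, or 34.4%, where all tested genes gave 30.4%. They lay below for NFE2L2 alone, 3.12% of the members, where all genes gave 28.4%. Taken in either direction, 58.8% of all genes did not overlap. The remaining 20 members overlapped between the groups. The libraries were not alike in their makeup. Mitochondrially encoded transcripts took 5.78 and 3.13% of the counts in Rib_CA 1 and 2, and 8.68 and 21.69% in DMSO 1 and 2. With those genes left out, BLVRB and OSGIN1 were again higher and NFE2L2 lower, with no other member past the threshold. Library totals were 37772266 to 38865103 counts in Rib_CA and 34774542 to 37754168 in DMSO. Transcript GC content also moved with the comparison: over 13651 genes, Spearman's rho between the GC content of the longest transcript and the log2 fold change was 0.48, and over the 32 members, which share these 4 libraries, it was 0.42. After correction of each library for GC and length, edgeR called no gene, members included, with 9 members and 3399 genes at an unadjusted p under 0.05.

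Of the 3 regulators, NFE2L2 fell and neither KEAP1 nor MAFG passed in edgeR. NFE2L2 (chr2:177227595-177392697, minus strand, GRCh38) had 47.9 and 35.1 CPM in the Rib_CA libraries, against 105.7 and 99.7 CPM in the DMSO libraries. The groups lay well apart, with a log2 fold change of -1.31 ± 0.28 (SE, n = 2 each; edgeR adjusted p = 0.0432). The change was -1.20 after the GC and length correction, where it did not pass (edgeR adjusted p = 0.0881). KEAP1, which marks NRF2 for destruction, had 115.6 and 120.8 CPM in Rib_CA, against 76.2 and 62.4 CPM in DMSO. The groups did not overlap, but the difference did not pass (log2 fold change 0.77 ± 0.25; edgeR adjusted p = 0.111), and it shrank to 0.34 after the correction. MAFG, a small MAF partner of NRF2, had 179 and 228 CPM in Rib_CA, against 97.0 and 96.7 CPM in DMSO. Its log2 fold change of 1.07 ± 0.26 just missed the threshold (edgeR adjusted p = 0.0586), while DESeq2 called it (adjusted p = 0.00419). The NFE2L2 call was lost on leaving out either DMSO library and with total-count scaling, with log2 fold changes of -1.27 without DMSO 1, -1.35 without DMSO 2 and -1.12 with that scaling.

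The reductase BLVRB had the largest increase of the 32. BLVRB (chr19:40447765-40465840, minus strand) reduces flavins and, in fetal life, biliverdin. It had 60.8 and 80.9 CPM in Rib_CA, against 16.6 and 18.1 CPM in DMSO. Neither group spread far beside the gap between them, and the log2 fold change was 2.03 ± 0.29 (edgeR adjusted p = 0.0285). It was 1.41 after the GC and length correction (edgeR adjusted p = 0.0852), and the call was lost without DMSO 1, where the log2 fold change was 1.96. OSGIN1 (chr16:83948282-83966332, plus strand), a known NRF2 target that restrains growth, had 37.5 and 27.8 CPM in Rib_CA, against 11.3 and 12.0 CPM in DMSO. The groups lay apart (log2 fold change 1.48 ± 0.30; edgeR adjusted p = 0.0391), and the change was 0.90 after the correction. The OSGIN1 call was lost on leaving out either DMSO library, with log2 fold changes of 1.44 without DMSO 1 and 1.53 without DMSO 2. Neither gene had a core element in its promoter window. The OSGIN1 window lies inside the gene interval given above, so the bases before 83948282 were not searched. The 250 bases before their RefSeq starts are printed because these are the 2 members that rose, all in lower case since no core was found:
BLVRB (chr19:40465746-40465995, minus strand): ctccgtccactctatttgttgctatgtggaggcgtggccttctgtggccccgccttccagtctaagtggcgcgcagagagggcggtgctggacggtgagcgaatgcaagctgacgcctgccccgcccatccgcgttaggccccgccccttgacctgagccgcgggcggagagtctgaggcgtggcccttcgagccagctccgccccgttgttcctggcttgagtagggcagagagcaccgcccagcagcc
OSGIN1 (chr16:83952990-83953239, plus strand): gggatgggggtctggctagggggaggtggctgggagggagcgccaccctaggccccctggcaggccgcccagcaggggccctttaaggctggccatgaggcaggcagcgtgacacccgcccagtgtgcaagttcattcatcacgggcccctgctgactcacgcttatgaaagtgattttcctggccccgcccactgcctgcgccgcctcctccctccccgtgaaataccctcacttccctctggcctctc
Of these bases, 67.2% in BLVRB and 66.4% in OSGIN1 were G or C. The OSGIN1 bases contain an AP-1 motif, in the letters tgactca.

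**Figure D2:**
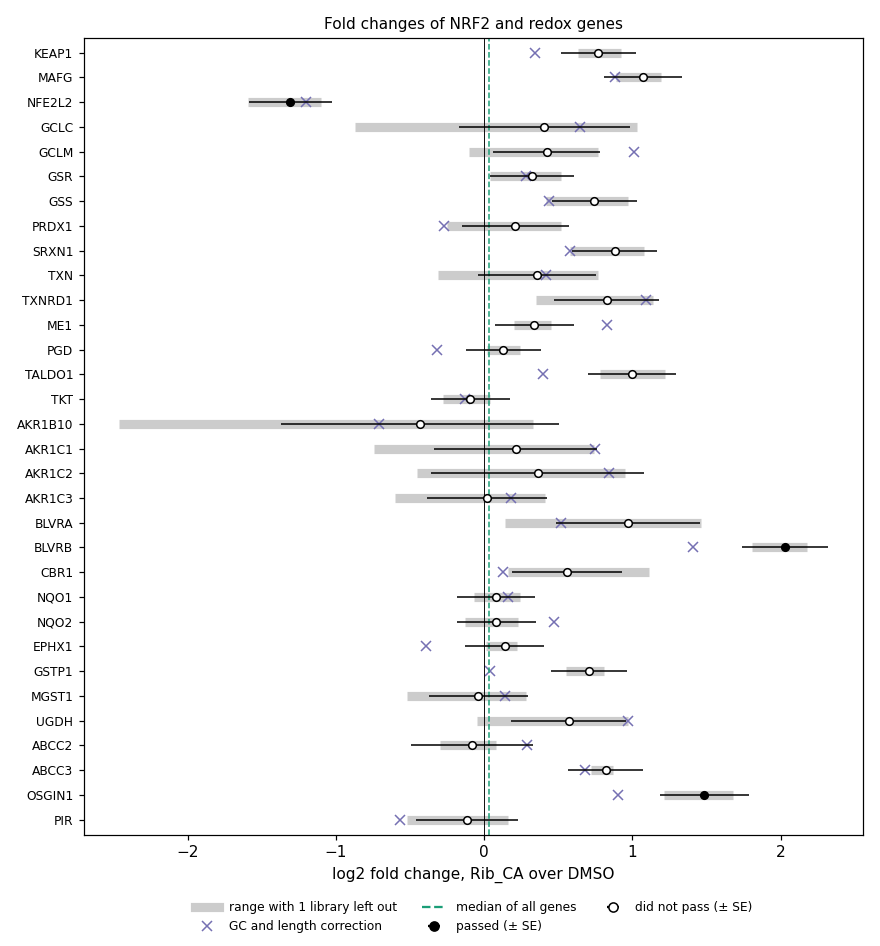
Log2 fold change of each gene, Rib_CA over DMSO, with its standard error; filled points passed the test and open points did not. Grey bars give the range with 1 library left out, crosses the value after the GC and length correction, and the dashed line the median of all tested genes at 0.03. NFE2L2 is the gene far to the left and BLVRB the gene farthest to the right, and the grey bars of GCLC, TXN and the AKR1C genes reach across 0.

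In glutathione synthesis, none of the 4 members passed in edgeR or in DESeq2, and 1 had an unadjusted p under 0.05. GCLC and GCLM encode the catalytic and modifier subunits of glutamate-cysteine ligase, the rate-limiting enzyme. GCLC had 18.4 and 70.4 CPM in Rib_CA, against 37.1 and 29.9 CPM in DMSO. Rib_CA 1 was thus the lowest of the 4 libraries and Rib_CA 2 the highest, and the log2 fold change of 0.41 ± 0.58 had no settled direction, being -0.87 without Rib_CA 2 and 1.03 without Rib_CA 1. GCLM had 56.7 and 106 CPM in Rib_CA, against 68.1 and 53.5 CPM in DMSO. Here too Rib_CA 2 stood alone, while Rib_CA 1 lay between the DMSO libraries. GSS, glutathione synthetase, which adds glycine in the last step, behaved differently, with 273 and 191 CPM in Rib_CA and 131 and 146 CPM in DMSO (log2 fold change 0.74 ± 0.29; edgeR adjusted p = 0.149). GSR, which reduces oxidised glutathione, had 70.5 and 101 CPM in Rib_CA, against 65.5 and 71.3 CPM in DMSO.

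The thioredoxin enzymes held the most abundant members. Per kilobase of exon, TXN (thioredoxin) stood highest of the 32, at 303 CPM in Rib_CA and 237 CPM in DMSO, and TXNRD1, the reductase that recharges it, came next in Rib_CA at 179 CPM per kilobase, against 101 in DMSO. TXNRD1 had 862 and 1539 CPM in Rib_CA, against 699 and 655 CPM in DMSO. Both Rib_CA libraries were higher, unequally so (log2 fold change 0.83 ± 0.36; edgeR adjusted p = 0.185). TXN had 218 and 475 CPM in Rib_CA, against 292 and 249 CPM in DMSO, so that the Rib_CA libraries enclosed those of DMSO. SRXN1, which repairs overoxidised peroxiredoxins, had 192 and 280 CPM in Rib_CA, against 127 and 129 CPM in DMSO. Its groups lay apart (log2 fold change 0.88 ± 0.29; edgeR adjusted p = 0.109), and DESeq2 called it (adjusted p = 0.0400). SRXN1 shares 2292 exonic bases, most of its length, with another entry of the table on the same strand, which had 1.51 CPM or less in every library. PRDX1, a peroxidase that uses thioredoxin, had 141 and 247 CPM in Rib_CA, against 200 and 136 CPM in DMSO, and overlapped. It shares 24.9% of its exonic bases with MMACHC on the opposite strand, and the use of strand in counting is not given in the sources used here.

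For NADPH, the reducing power behind both systems, the pentose phosphate enzymes differed among themselves. TALDO1, transaldolase, had 262 and 347.5 CPM in Rib_CA, against 175 and 130 CPM in DMSO. The groups did not overlap, and the difference did not pass in edgeR (log2 fold change 0.996 ± 0.296; adjusted p = 0.0898) but did in DESeq2 (adjusted p = 0.0179). TKT, transketolase, had 479 and 395 CPM in Rib_CA, against 432 and 499 CPM in DMSO, and PGD, which yields NADPH from 6-phosphogluconate, had 293 and 278 CPM in Rib_CA, against 242 and 280 CPM in DMSO. For both, the groups overlapped, with log2 fold changes of -0.09 ± 0.27 in TKT and 0.13 ± 0.25 in PGD. ME1, the cytosolic malic enzyme, had 50.1 and 60.3 CPM in Rib_CA, against 40.4 and 46.8 CPM in DMSO, a small gap that did not pass (edgeR adjusted p = 0.447).

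NQO1, the quinone reductase most often used to read NRF2 output, differed little. It had 252 and 222.5 CPM in Rib_CA, against 249.6 and 199.8 CPM in DMSO, with a log2 fold change of 0.08 ± 0.27 (edgeR adjusted p = 0.876; -0.07 to 0.24 with 1 library left out). NQO2 gave the same size of difference, 0.08 ± 0.27. The AKR1C genes and AKR1B10, which encode reductases of aldehydes and ketones, were scarce. AKR1C1 averaged 5.49 ± 3.76 CPM in Rib_CA and 4.74 ± 0.51 CPM in DMSO (SD, n = 2 each). In the same order, AKR1C2 averaged 0.942 ± 0.574 and 0.733 ± 0.350 CPM, and AKR1B10 0.423 ± 0.454 and 0.575 ± 0.084 CPM. AKR1C3 was the most abundant of them, with 9.90 and 20.5 CPM in Rib_CA, against 16.0 and 14.0 CPM in DMSO. In each of these 4 genes Rib_CA 2 was the highest library, and Rib_CA 1 was the lowest in all but AKR1C2. The open reading frames of AKR1C1 and AKR1C2 are 98.0% identical over 972 bases, and that of AKR1C3 is 91.9% identical to AKR1C1, so reads could be split among them by a counting method not given in the sources used here. BLVRA, biliverdin reductase A, had 18.9 and 48.1 CPM in Rib_CA, against 20.7 and 13.5 CPM in DMSO, and CBR1, a carbonyl reductase, had 66.8 and 53.3 CPM in Rib_CA, against 53.7 and 27.8 CPM in DMSO. Both overlapped between the groups, and their fold changes moved widely with the library left out, from 0.14 to 1.46 in BLVRA and from 0.16 to 1.11 in CBR1 on the log2 scale.

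Conjugation and export gave no member past the threshold in edgeR. GSTP1, the main glutathione transferase of many tumours, had 149 and 183 CPM in Rib_CA, against 104 and 99.1 CPM in DMSO. Both Rib_CA libraries were higher (log2 fold change 0.71 ± 0.26; edgeR adjusted p = 0.134), but after the GC and length correction the difference was 0.04. GSTP1 transcripts are 62.5% G and C, the highest share of the members after OSGIN1 at 63.4%. MGST1, a microsomal transferase, had 72.9 and 130.9 CPM in Rib_CA, against 108 and 100.9 CPM in DMSO. UGDH, which makes UDP-glucuronic acid, had 46.1 and 95.5 CPM in Rib_CA, against 52.7 and 42.5 CPM in DMSO. Rib_CA 2 was the highest library for both. EPHX1, the microsomal epoxide hydrolase, had a log2 fold change of 0.14 ± 0.27. ABCC3, an exporter of glutathione and glucuronide conjugates, had 66.2 and 61.4 CPM in Rib_CA, against 36.5 and 35.8 CPM in DMSO. The libraries of each group were close (log2 fold change 0.82 ± 0.25; edgeR adjusted p = 0.0975), and DESeq2 called it (adjusted p = 0.0390). The related pump ABCC2 was low, at 3.47 and 2.74 CPM in Rib_CA and 3.20 and 3.37 CPM in DMSO. PIR, an iron-binding nuclear protein gene, had 11.4 and 18.6 CPM in Rib_CA, against 17.45 and 15.03 CPM in DMSO, and overlapped.

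The 2 Rib_CA libraries differed from each other more than the DMSO libraries did, across these genes and over all tested genes alike. Rib_CA 2 was at least 1.5-fold above Rib_CA 1 in 13 members, or 40.6%, where all tested genes gave 21.8%. No member was at least 1.5-fold lower, where all genes gave 18.0%. The 13 were GCLC (3.83-fold), GCLM (1.87-fold), TXN (2.17-fold), TXNRD1 (1.78-fold), PRDX1 (1.75-fold), BLVRA (2.55-fold), AKR1C1, AKR1C2, AKR1C3, AKR1B10, MGST1, UGDH (2.07-fold) and PIR. In AKR1B10 the ratio of 7.28 rests on 32 counts in Rib_CA 2 and 4 in Rib_CA 1. In all 13 Rib_CA 2 lay above both DMSO libraries, while Rib_CA 1 lay below both in 7, between them in 5 and above both in 1. Between the DMSO libraries, no member was at least 1.5-fold higher in DMSO 2 (8.87% of all genes) and 3 were at least 1.5-fold lower (11.0% of all genes). With a single library on each side these are descriptions of libraries, with no test. The difference was spread unevenly over GC content. Among the 16 members with transcripts under 50% GC, 10 were among the 13, where 32.0% of 7398 such genes were at least 1.5-fold higher in Rib_CA 2, and among the 16 at 50% or more, 3 were, where 9.82% of 6253 genes were. The part of GC content in this difference was not tested further. The members' median log2 fold change was 0.06 without Rib_CA 2 and 0.62 without Rib_CA 1, and edgeR called 10 members higher without Rib_CA 1, where 8.84% of all genes were, and 4 without Rib_CA 2, where 8.22% were.

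**Figure D3:**
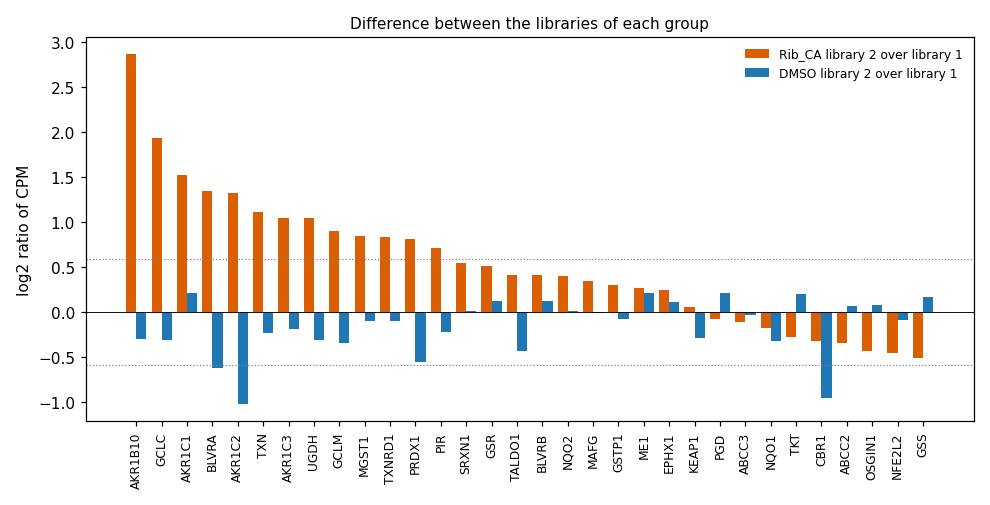
Log2 ratio of CPM between the libraries of a group for each gene, Rib_CA library 2 over library 1 in orange and DMSO library 2 over library 1 in blue, with dotted lines at 1.5-fold in either direction. The orange bars pass the upper line for 13 genes and no gene passes the lower line in orange, while the blue bars pass no upper line.

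Genes of the pathway outside the 32 were read from 5 lists, of which 110 of 121 genes were tested. Of the 110, 11 rose and 3 fell, where 2.01% of all tested genes rose and 5.11% fell. Among proteins that control NRF2, 2 of 19 rose and 2 fell, with a median log2 fold change of 0.10 against 0.03 over all genes. The small MAF genes MAFF and MAFK rose. MAFF had 38.3 and 104.4 CPM in Rib_CA, against 12.7 and 10.9 CPM in DMSO (6.05-fold; edgeR adjusted p = 0.0349), and MAFK had 90.1 and 78.6 CPM in Rib_CA, against 34.8 and 30.1 CPM in DMSO (2.60-fold; edgeR adjusted p = 0.0352). CUL3, the scaffold of the ligase that KEAP1 serves, was 2.31-fold lower (39.6 and 35.7 CPM in Rib_CA, 86.5 and 87.1 CPM in DMSO; edgeR adjusted p = 0.0424), and USP15, a deubiquitinase reported to act on KEAP1, was 2.92-fold lower. After the GC and length correction CUL3 stood at -0.42 and USP15 at -0.32 on the log2 scale, and both calls were lost with total-count scaling. NFE2L1, the NRF2 relative that controls proteasome genes, had 536 and 606 CPM in Rib_CA, against 279.5 and 309 CPM in DMSO (edgeR adjusted p = 0.0746).

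In a list of genes taken as other NRF2 targets, 2 of 25 tested rose and none fell. All tested genes gave 2.01% higher and 5.11% lower. The median log2 fold change of the 25 was 0.41, against 0.03 over all genes. TXNIP, which binds and inhibits thioredoxin, rose 3.59-fold (581 and 753.5 CPM in Rib_CA, 172.5 and 199.5 CPM in DMSO; edgeR adjusted p = 0.0285). TRIM16, a ubiquitin ligase gene, rose 2.60-fold. Whether NRF2 acts on TXNIP or the other listed genes in these cells, and whether it would raise or lower each of them, was not tested. The aldose reductase gene AKR1B1 (2.78-fold; edgeR adjusted p = 0.0505), the exporter gene ABCC4 (log2 fold change -1.01; adjusted p = 0.0785) and the heme oxygenase gene HMOX1 did not pass. HMOX1 had 27.6 and 24.1 CPM in Rib_CA, against 10.5 and 16.2 CPM in DMSO. SLC7A11, the cystine transporter gene, chosen for mention once its values were known, had 155.5 and 400 CPM in Rib_CA, against 160 and 121 CPM in DMSO, and did not pass (edgeR adjusted p = 0.214). It resembled GCLC and GCLM in that Rib_CA 2 was the highest library and Rib_CA 1 lay below DMSO 1.

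**Figure D4:**
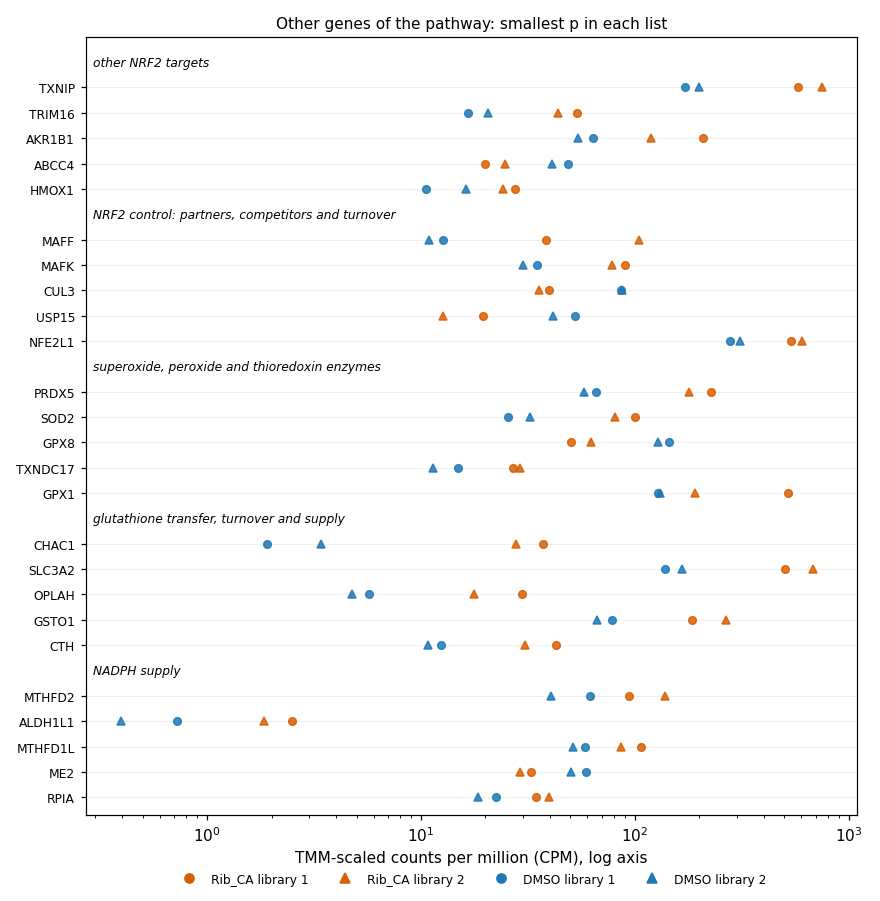
Level of the 5 genes with the smallest p from each of 5 lists outside the 32, as TMM-scaled CPM on a log axis, with Rib_CA in orange and DMSO in blue. In every gene shown the groups do not overlap, which the choice by smallest p favours. Over all tested genes, 58.8% did not overlap. MAFF, TXNIP, CHAC1 and SLC3A2 are higher in Rib_CA, and CUL3, USP15, GPX8, ABCC4 and ME2 are lower.

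Among enzymes of superoxide, peroxide and thioredoxin, 2 of 27 rose and 1 fell, where all tested genes gave 2.01% and 5.11%. Their median log2 fold change was 0.71, against 0.03 over all genes. The peroxiredoxin gene PRDX5 rose 3.31-fold (228 and 179 CPM in Rib_CA, 65.8 and 57.6 CPM in DMSO; edgeR adjusted p = 0.0286) and SOD2, the mitochondrial superoxide dismutase, rose 3.14-fold (100.5 and 80.6 CPM in Rib_CA, 25.5 and 32.2 CPM in DMSO; edgeR adjusted p = 0.0297). GPX8, a peroxidase of the endoplasmic reticulum, was 2.42-fold lower. TXNDC17 (edgeR adjusted p = 0.0724) and GPX1, the cytosolic selenium peroxidase (adjusted p = 0.106), did not pass. GPX1 ran against the pattern of GCLC, with 522 CPM in Rib_CA 1 and 191 in Rib_CA 2, against 128 and 132 CPM in DMSO.

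Over all tested genes, 2.01% rose and 5.11% fell, with a median log2 fold change of 0.03. Of 24 genes of glutathione transfer, turnover and supply, 5 rose and none fell, with a median log2 fold change of 0.64. They were CHAC1 (12.2-fold) and OPLAH (4.52-fold), which act in the breakdown of glutathione and its product oxoproline, SLC3A2 (3.91-fold), the heavy chain shared by SLC7A11 and other amino acid transporters, GSTO1 (3.13-fold), an omega-class transferase, and CTH (3.17-fold), which makes cysteine. OPLAH had 29.7 and 17.6 CPM in Rib_CA, against 5.71 and 4.77 CPM in DMSO, and GSTO1 had 186 and 267 CPM in Rib_CA, against 78.1 and 66.7 CPM in DMSO. Of these 5, CHAC1 alone kept its call when either DMSO library was left out. Of 15 further genes of NADPH supply none passed in edgeR (median log2 fold change 0.47), with 7 at an unadjusted p under 0.05 (28.4% of all genes) and 4 called by DESeq2 (18.7% of all genes). The nearest was the mitochondrial folate enzyme gene MTHFD2 (94.3 and 138.9 CPM in Rib_CA, 61.7 and 40.6 CPM in DMSO; edgeR adjusted p = 0.0788). ALDH1L1, MTHFD1L and RPIA had log2 fold changes of 1.95, 0.82 and 0.86, and ME2, the mitochondrial malic enzyme, had -0.82, none of them past the threshold. Without DMSO 1 or without DMSO 2, most calls in the 5 lists were lost. Log2 fold changes in those fits were 1.74 and 1.95 in TXNIP, against 1.84 with all libraries. In GPX8 they were -1.20 and -1.35, against -1.28.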

How the data were processed

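RNA from MDA-MB-231 cells was made into messenger RNA libraries, 2 with Rib_CA and 2 with DMSO, per the labels' protocols. The authors deposited raw counts per human Ensembl gene, with no normalization. The submitters' processing notes name the builds GRCm38 and mm10, which are mouse builds and do not match the IDs; the aligner, counting tool and use of strand were not stated there and are not known here. Between 67.7 and 70.7% of values from 1 to 10 were even. Why was not tested.

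Symbols came from a table of gene names (20148 of 20263 IDs) and coordinates, exon lengths and GC content from GENCODE release 29 (GRCh38). Counts were filtered with filterByExpr (minimum count 10, minimum total 15), scaled by TMM (factors 0.872 to 1.14) and tested in R 4.3.3 with edgeR 4.0.16 (glmQLFit, robust; glmQLFTest) over 13667 genes with 2 residual degrees of freedom. SE is the absolute log2 fold change over the root of F. The scripts were tested on simulated data. The members and lists were chosen with earlier results of these data known. All 32 members are named, and from each further list the 5 genes with the smallest p. Alternatives were run with DESeq2 1.42.0, limma 3.58.1 and mgcv 1.9.3 (6 basis functions), and figures drawn with matplotlib 3.10.9. The GC and length correction used as offset a smooth of each library's deviations, so any treatment change that follows either property is taken out with it. No protein table was used; identity among AKR1C genes came from the longest open reading frames.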

Additional observations from a re-analysis of the deposited data

How the results depend on the processing

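Over all genes, 275 were higher and 699 lower, a share of 28.2% higher among the calls; 44.2% were higher with total-count scaling (260 and 328). Counts of higher genes were 448 with no filter, 418 with a filter of 5 CPM in 2 libraries, and 36 to 1234 with 1 library left out; those of lower genes were 137 to 1634 with 1 library left out. DESeq2 called 1043 higher and 1514 lower. After the GC and length correction 0 genes passed in edgeR, against 3399 at an unadjusted p under 0.05; among the members 0 were higher and 0 lower, with 9 at an unadjusted p under 0.05, and among the listed pathway genes 0 and 0, with 34. Members called higher numbered 0 to 10 with 1 library left out (0 without DMSO 1, 1 without DMSO 2, 10 without Rib_CA 1 and 4 without Rib_CA 2) and 6 in DESeq2, against 2. Members called lower numbered 0 with total-count scaling, against 1. With that scaling, 11 members and 3748 of 13667 tested genes had an unadjusted p under 0.05 in edgeR. NFE2L2, the member called lower, had log2 fold changes of -1.27 without DMSO 1 and -1.35 without DMSO 2. Listed pathway genes called higher ranged from 1 to 27 with 1 library left out and were 19 in DESeq2, against 11; those called lower ranged from 0 to 7 with 1 library left out, and were 0 with total-count scaling and 7 in DESeq2, against 3. The members' median ranged from 0.06 to 0.62 with 1 library left out.

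With the replicate number as a block, 260 genes were higher and 687 lower, and the called members were BLVRB, OSGIN1 and NFE2L2; CUL3 (adjusted p = 0.0646) and TRIM16 (adjusted p = 0.0504) lost their calls and AKR1B1 (adjusted p = 0.0307) gained one. Deviations of same-numbered libraries had a correlation of -0.186, so the numbers were not taken to pair the samples. A crossed pairing, chosen after seeing the data, gave 724 higher and 1267 lower genes, 4 and 1 members, and 17 and 8 listed pathway genes.

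Some members changed sign, among them UGDH, AKR1B10, GCLM and GCLC, whose changes were larger than the members' median. With total-count scaling TKT was 0.11, ABCC2 0.11, MGST1 0.18 and PIR 0.10 on the log2 scale, against a shift of 0.20 in all genes. After the GC and length correction PRDX1 was -0.27, PGD -0.32, ABCC2 0.29, MGST1 0.14 and EPHX1 -0.39, and of the listed genes ME2 was 0.073. AKR1C3 was -0.004 with DESeq2's size factors, -0.004 in DESeq2, -0.063 in limma-voom and -0.069 with the replicate block. With 1 library left out the ranges were -0.075 to 0.244 in NQO1, -0.13 to 0.23 in NQO2, -0.87 to 1.03 in GCLC, -0.10 to 0.77 in GCLM, -0.31 to 0.77 in TXN, -0.25 to 0.52 in PRDX1, -0.28 to 0.038 in TKT, -2.46 to 0.33 in AKR1B10, -0.74 to 0.74 in AKR1C1, -0.45 to 0.95 in AKR1C2, -0.60 to 0.41 in AKR1C3, -0.30 to 0.077 in ABCC2, -0.52 to 0.28 in MGST1, -0.52 to 0.16 in PIR and -0.05 to 0.97 in UGDH. The cause was not tested. Such fits take the spread of a group of 1 from the other group. AKR1B10, AKR1C1, AKR1C2 and ABCC2 fell below the 5 CPM filter. Precision is limited by 2 libraries per group.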
